A study of Mus musculus with 6 samples.

Results

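The genes described here encode the plasminogen activators, the urokinase receptor and a group of serpins: Plau, Plaur, Plat, Serpine2, Serpinb2, Serpinb6a, Serpinb9 and Serpinf1. They were taken by name, 8 of the 34745 genes in each count table, and each name matched 1 row. The samples were 6 RNA-seq libraries of 889, a murine lung cancer cell line of C57BL/6 origin labelled as lung tissue. In 3 libraries the cells carried a control sgRNA (sg-con, treatment labelled control) and in 3 they carried sgRNA against kiaa1522 (sg-kiaa1522, treatment labelled KIAA1522-downregulated). Per the study's methods the sgRNAs were delivered with Cas9 by lentivirus and transduced cells were isolated by puromycin or by sorting. The sources used here do not say which kiaa1522 sgRNA the sequenced cells carried, whether they were a pool or a clone, or whether the replicates were separate cultures, so p-values measure only the spread between these libraries.

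Plasminogen activators are serine proteases that cut plasminogen into plasmin, which degrades fibrin and extracellular matrix. Urokinase (Plau) acts at the cell surface, where it binds its receptor Plaur, and tissue-type activator (Plat) acts mainly on fibrin. Serpins are inhibitors that offer a protease a reactive loop and trap it after the first cut, and the balance of activators and serpins is a classical theme in invasion of lung and other carcinomas.

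Total counts were 16581000 to 18559660 in the sg-con libraries and 12220001 to 18609376 in the sg-kiaa1522 libraries, lowest in sg-kiaa1522 replicate 1. Levels are given as CPM, the counts scaled to the TMM-adjusted library size, and as TPM where genes are compared with each other, since TPM corrects for length. The targeted gene, C77080 (mouse kiaa1522), had 2214, 2404 and 2064 counts in sg-con and 2554, 3726 and 3667 counts in sg-kiaa1522, a log2 fold change of 0.73 (standard error, SE, 0.0569, edgeR quasi-likelihood adjusted p = 9.1e-05). The groups are therefore named by their labels, and each direction below is one for libraries labelled sg-kiaa1522 in which kiaa1522 mRNA was higher. RNA counts do not measure KIAA1522 protein, which the study examined with an antibody, so depletion of the protein in these cells was not tested here. Of 7 epithelial markers, 4 of the 5 tested were lower and none higher in sg-kiaa1522 (against 26.3% of all tested genes in each direction), with summed levels of 3850 to 4570 CPM in sg-con and 3240 to 3490 CPM in sg-kiaa1522, and Epcam was at 0 in each library. Among the lower ones Krt18 had a log2 fold change of -0.19 with overlapping groups. Nkx2-1 did not pass and varied within the groups, with 970, 1096 and 227 counts in sg-con and 132, 174 and 671 in sg-kiaa1522. Leukocyte markers summed to 20.7 to 22.6 and 41.4 to 48.4 CPM, carried by Cd14 and Cd68, while Lyz2 went the other way (63, 18 and 37 counts in sg-con against 11, 17 and 16 in sg-kiaa1522), Adgre1 was at 0 in each library and Ptprc had at most 14 counts. Fibroblast markers summed to 464 to 484 and 166 to 197 CPM, carried by Col1a2 and Pdgfrb, with Lum and Dcn at 2 counts or fewer. Endothelial markers summed to 3.64 to 5.43 and 9.38 to 11.7 CPM, carried by Vwf alone, with Cdh5 at 4, 0 and 5 counts in sg-con and 0 in each sg-kiaa1522 library, and mast cell markers to 43.3 to 48.8 and 5.99 to 7.22 CPM, the latter carried by Cma1 with Kit at 1 count or fewer. The part of these shifts in the values below was not tested. In bulk RNA more or fewer cells of a type and more or less RNA per cell cannot be told apart.

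Among the members, the plasminogen activator inhibitor Serpinb2 and the urokinase receptor Plaur rose in sg-kiaa1522, by 11.7-fold and 1.61-fold, while the granzyme B inhibitor Serpinb9 fell to 0.252 of its sg-con level. Plau, at 0.791 of its sg-con level, passed the test narrowly and lost the call under several alternatives given below. Plat and Serpinb6a did not pass the test, and Serpine2 and Serpinf1 were near the limit of detection. The test covered the 10046 genes with more than 500 counts summed over the libraries, 6 of the members among them. At an adjusted p of at most 0.05, 2 of these 6 were lower and 2 were higher, against 26.3% of all tested genes lower and 26.3% higher. With the fold threshold of 2 that the study's methods add, in either direction, 1 member, Serpinb9, was called lower against 4.34% of tested genes, and 1, Serpinb2, was called higher against 2.74%. Serpinb9, at a log2 fold change of -1.99, falls just short of the log2 threshold of 2 in size that a figure legend of the study names. The groups did not overlap for 4 of the 6, a share near the 61.7% of tested genes for which this held. Serpinb2 passed the count minimum narrowly, with 534 counts in all, most of them from the sg-kiaa1522 libraries, where it is high, so its passing of the filter is tied to its direction.

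**Figure D1:**
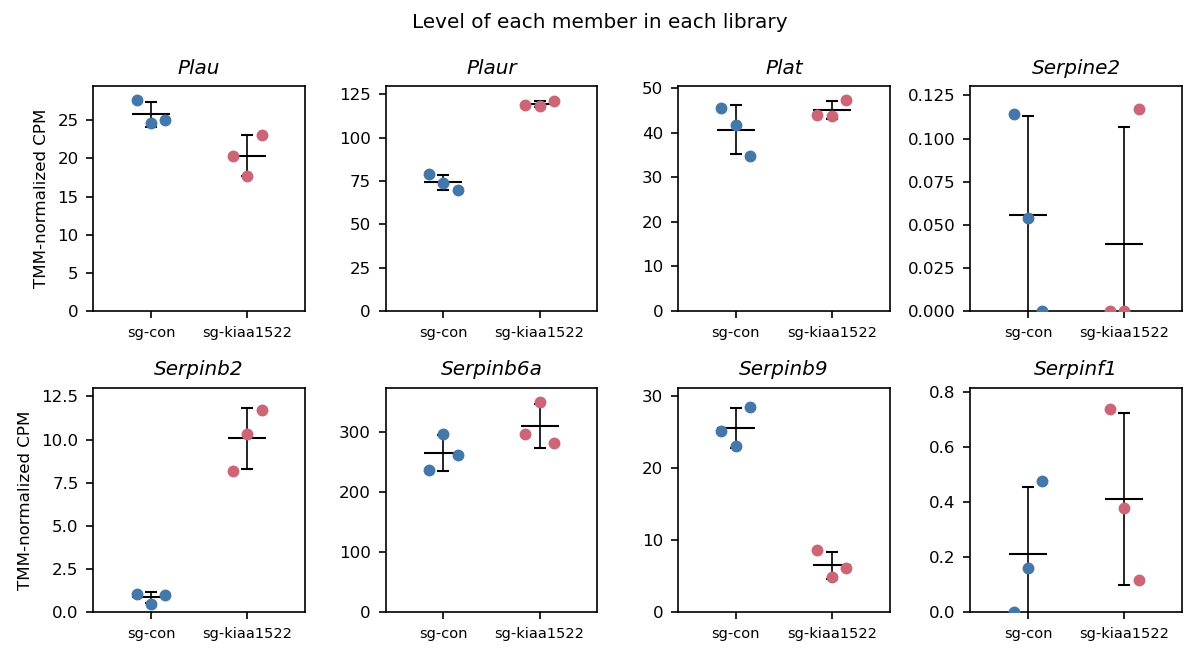
TMM-normalized CPM of each member in each library (points), with the group mean and SD (n = 3) as black bars; each panel has its own linear axis from 0. Serpinb2 lies at 0.483 to 1.09 CPM in sg-con and 8.20 to 11.7 CPM in sg-kiaa1522, and Serpinb9 at 23.0 to 28.5 and 4.89 to 8.61 CPM.

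Plau encodes urokinase. It lies on chromosome 14 of GRCm38 from 20836660 to 20843385 on the plus strand. Its levels were 27.6, 24.6 and 25.1 CPM in sg-con replicates 1 to 3 and 20.3, 17.7 and 23.1 CPM in sg-kiaa1522. The highest sg-kiaa1522 library, replicate 3, came closest to the sg-con range, and the groups did not overlap in CPM. The log2 fold change was -0.34 (SE 0.119, 95% interval -0.62 to -0.06, edgeR quasi-likelihood adjusted p = 0.044). With the replicate number as a block the estimate was the same and the adjusted p was 0.070 from the same test, and with 1 library left out the adjusted p was 0.069 to 0.14 for each library but sg-kiaa1522 replicate 3, without which it was 0.030. In TPM the groups overlapped, at 26.4 to 30.9 and 20.3 to 27.3.

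The fall of Plau was the size of the shift of its chromosome. The 343 tested genes of chromosome 14 had a median log2 fold change of -0.38, against -0.01 over all tested genes, and 14.3% of them were called lower with the fold threshold of 2, against 4.34% of all tested genes. With that median removed the log2 fold change of Plau was 0.04. Of the 16 other tested genes that reach within 500 kb of Plau, 9 were lower at an adjusted p of at most 0.05 with no fold threshold, none was higher and 7 did not pass, against 26.3% of all tested genes in each direction. The closest by midpoint, Camk2g at -75.5 kb, had a log2 fold change of 0.17 (adjusted p = 0.70 from the same test). The next, Ndst2, Zswim8 and Chchd1 at -111 to -136 kb, were lower, with -0.60, -0.27 and -0.69, while Vcl at 142 kb had 0.08 and did not pass. The largest falls in the window were those of Dnajc9 (-1.32) and Adk (-1.15), at -453 and 411 kb.

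**Figure D2:**
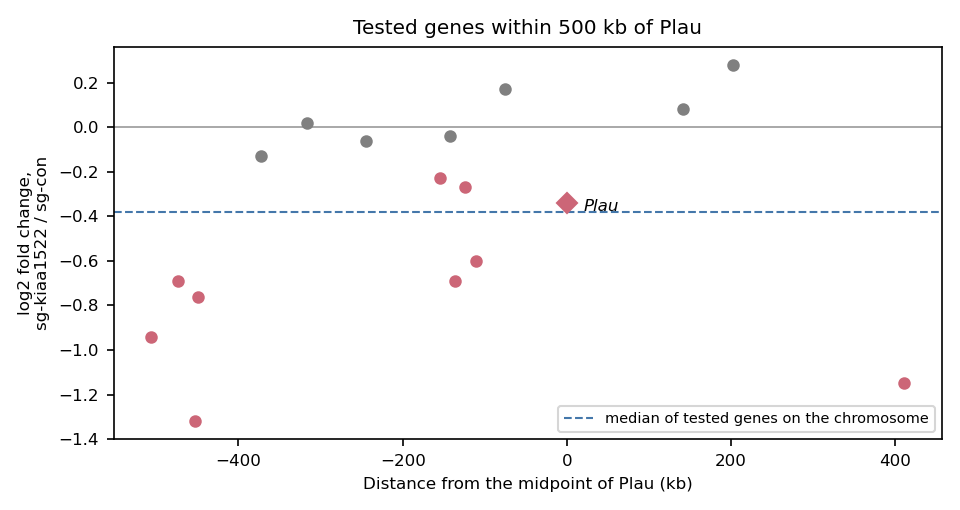
Log2 fold change (sg-kiaa1522 / sg-con) of tested genes that reach within 500 kb of Plau (diamond), by distance between midpoints in kb; red marks a passed test (edgeR quasi-likelihood, adjusted p at or under 0.05), grey the rest, and the dashed line is the median of the chromosome, -0.38. Plau lies close to that line. Camk2g and Vcl, the nearest on either side, lie above 0 without passing the test, and Ndst2, Zswim8 and Chchd1 just beyond Camk2g lie below 0 and pass.

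Plaur encodes the GPI-anchored receptor that holds urokinase at the cell surface. It lies on chromosome 7 from 24462484 to 24475968 on the plus strand and shares no exon base with another annotated gene. It had 78.8, 73.8 and 69.8 CPM in sg-con and 119, 118 and 121 CPM in sg-kiaa1522, where the libraries were nearly level. Every sg-kiaa1522 library was above every sg-con library. The log2 fold change was 0.69 (SE 0.0667, 95% interval 0.53 to 0.84, edgeR quasi-likelihood adjusted p = 1.9e-04), below the study's fold threshold. It lay between 0.64 and 0.72 with any 1 library left out. Among its 17 tested neighbours reaching within 500 kb, 6 were lower, 5 higher and 6 did not pass at the same threshold, with a median log2 fold change of 0.03.

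The Plaur to Plau ratio in TPM, chosen after their values were seen and so given as a description, was 2.58, 2.72 and 2.52 in the sg-con libraries and 5.29, 6.05 and 4.74 in the sg-kiaa1522 libraries. The means were 2.60 ± 0.102 and 5.36 ± 0.660 (SD, n = 3). The log2 fold changes behind it are 0.69 for Plaur and -0.34 for Plau, and the call of Plau was lost under most of the alternatives above. The size of the ratio depends on the gene length used, since the mean transcript length gave Plaur 88.1 and Plau 18.4 TPM in sg-con and 146 and 14.9 TPM in sg-kiaa1522.

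Plat encodes tissue-type plasminogen activator and lies on chromosome 8 from 22757727 to 22782844 on the plus strand. It had 45.7, 41.8 and 34.8 CPM in sg-con and 44.0, 43.9 and 47.5 CPM in sg-kiaa1522. The lowest value was that of sg-con replicate 3, and the other sg-con libraries lay at or near the sg-kiaa1522 values. With a log2 fold change of 0.15 (SE 0.112, edgeR quasi-likelihood adjusted p = 0.30) Plat did not pass, and its 95% interval ran from -0.11 to 0.41, so its upper end lay below the lower end for Plaur.

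Serpinb2 encodes plasminogen activator inhibitor type 2, a clade B serpin that inhibits urokinase and tissue-type activator and is found mostly inside cells. It lies on chromosome 1 from 107511423 to 107535478 on the plus strand. Its counts were 19, 9 and 17 in sg-con and 100, 189 and 200 in sg-kiaa1522, or 1.09, 0.483 and 1.02 CPM and 8.20, 10.3 and 11.7 CPM. Sg-con was thus low in each library, and the lowest sg-kiaa1522 library was far above the highest sg-con library. Its fitted log2 fold change was 3.55 (SE 0.278, 95% interval 2.91 to 4.20, edgeR quasi-likelihood adjusted p = 9.0e-05). Without any 1 sg-kiaa1522 library its total fell to 500 counts or fewer and it left the test, so it was also fitted, as a choice made after seeing the data, among every gene with at least 1 count, where the 3 such fits gave 3.42 to 3.68. Its exons share 291 bases, 12.4% of their length, with Serpinb10 on the same strand, which had 0 counts in each library.

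Promoter sequences from RefSeq (GRCm38.p6) were matched for 6 of the 8 members, and not for Plau and Plat. They are shown for the 3 members with the largest changes among those that passed the test, as the 130 bases before the annotated start, 5′ to 3′ on the gene's strand, which is the plus strand for each. Plaur is chr7:24462353-24462482, Serpinb2 is chr1:107511293-107511422 and Serpinb9 is chr13:33004411-33004540, the latter from a RefSeq start inside the longer GENCODE gene. Capitals mark motif matches. The AP-1 site was searched as TGANTCA. The TATA box that sits upstream of many regulated starts was searched as TATAAA. The GC box, bound by Sp1 and its relatives, was searched as GGGCGG.
Plaur: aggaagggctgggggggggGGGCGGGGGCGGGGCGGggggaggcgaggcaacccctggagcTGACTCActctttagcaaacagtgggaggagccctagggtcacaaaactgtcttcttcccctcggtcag
Serpinb2: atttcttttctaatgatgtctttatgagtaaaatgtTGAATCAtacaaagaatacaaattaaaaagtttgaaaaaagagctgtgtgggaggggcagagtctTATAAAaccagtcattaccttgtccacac
Serpinb9: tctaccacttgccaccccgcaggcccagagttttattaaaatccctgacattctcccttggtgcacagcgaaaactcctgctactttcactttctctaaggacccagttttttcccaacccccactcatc

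These motifs, the CRE (TGACGTCA) and the NFκB consensus of 10 bases were searched on both strands of the 250 bases before each start. The members that rose, Plaur and Serpinb2, each had 1 AP-1 match, beginning at position -69 and -94 from the start, against 6.75% of 32851 RefSeq promoters with at least 1. Serpinb2 also had a TATA box at -29, a motif present in 12.4%. Plaur had 3 GC boxes that overlap or adjoin each other, at -111, -105 and -100, and 32.7% of promoters had at least 1. A further annotated start of Serpinb2 lies 87 bases downstream, and its window holds the same AP-1 and TATA matches. Serpinb9 had no match to any of these motifs, Serpinb6a had 2 GC boxes at 1 of its 2 starts, Serpine2 had 6 GC boxes and Serpinf1 had no match. No member's window held these letters for the NFκB consensus, which 7.25% of promoters hold, or for the CRE, which 1.55% hold. A match, or its lack, is a description of the letters in this window and says nothing of binding.

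Serpinb9 encodes an intracellular serpin that inhibits granzyme B, the protease with which cytotoxic lymphocytes kill target cells. It lies on chromosome 13 from 33003250 to 33017957 on the plus strand and shares no exon base with another annotated gene. Its levels were 25.2, 23.0 and 28.5 CPM in sg-con and 8.61, 4.89 and 6.10 CPM in sg-kiaa1522. The highest sg-kiaa1522 library, replicate 1, which is the shallowest, was still well below the lowest sg-con library. Its log2 fold change was -1.99, or 3.97-fold lower (SE 0.201, 95% interval -2.46 to -1.52, edgeR quasi-likelihood adjusted p = 2.3e-04). It ranged from -2.22 to -1.81 with any 1 library left out.

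**Figure D3:**
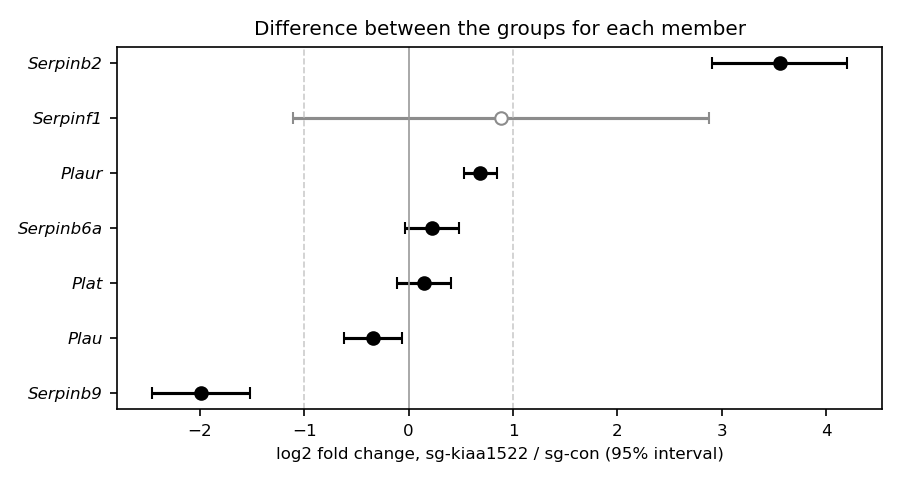
Log2 fold change (sg-kiaa1522 / sg-con) of the members with its 95% interval, from edgeR's quasi-likelihood test; filled points are genes with more than 500 counts, the open point, Serpinf1, comes from the fit of every gene with at least 1 count, and dashed lines mark a log2 fold change of 1 in size. Serpinb2 (3.55) and Serpinb9 (-1.99) lie beyond the dashed lines on opposite sides, and the intervals of Plat and Serpinb6a include 0.

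Serpinb6a encodes an intracellular serpin that inhibits trypsin-like proteases and cathepsin G. It lies on chromosome 13 from 33917918 to 34002794 on the minus strand. It was the most abundant member, at 237, 296 and 262 CPM in sg-con and 297, 350 and 281 CPM in sg-kiaa1522. Sg-con replicate 2 lay within the sg-kiaa1522 range, so the groups overlapped in CPM. The log2 fold change was 0.22 (SE 0.109, 95% interval -0.03 to 0.48, edgeR quasi-likelihood adjusted p = 0.12). In TPM the groups did not overlap, at 116 to 139 and 145 to 176 (p = 0.1 by an exact permutation test, two-sided, the smallest that 3 libraries against 3 allow). Of its exon bases, 29.3% are shared with genes on the opposite strand, Nqo2, Ripk1 and 1110046J04Rik, and the sources do not say whether counting used strand, so their reads cannot be told apart there. Ripk1 and 1110046J04Rik were themselves higher, with log2 fold changes of 0.62 and 0.58 (adjusted p = 0.030 and 0.018 from the same test), and Nqo2 had 0.12 (adjusted p = 0.27).

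Serpine2, protease nexin 1, inhibits thrombin, urokinase and tissue-type activator. It lies on chromosome 1 from 79794197 to 79861180. It had 2, 1 and 0 counts in sg-con and 0, 0 and 2 in sg-kiaa1522. Each library was under the floor of 3 counts, which corresponds to 0.161 to 0.246 CPM, so no difference was detectable at this depth and no fold is given. Serpinf1 encodes pigment epithelium-derived factor, a secreted serpin that does not inhibit proteases and is known for blocking vessel growth. It lies on chromosome 11 from 75409769 to 75422701. It had 0, 3 and 8 counts in sg-con and 9, 7 and 2 in sg-kiaa1522, with overlapping groups. Fitted among every gene with at least 1 count, its log2 fold change was 0.88 (SE 0.916, 95% interval -1.11 to 2.87, edgeR quasi-likelihood adjusted p = 0.51), and it ranged from 0.27 without sg-kiaa1522 replicate 1 to 2.15 without sg-con replicate 3.

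Per length, the order of the members differed between the groups in its middle ranks. In sg-con it was Serpinb6a (126 TPM), Plaur (73.1), Plau (28.1), Serpinb9 (18.9), Plat (16.9), Serpinb2 (0.949), Serpinf1 (0.230) and Serpine2 (0.0176), where the libraries of Serpinb9 and Plat overlapped, as did those of the last pair. In sg-kiaa1522 it was Serpinb6a (157 TPM), Plaur (126), Plau (23.7), Plat (19.9), Serpinb2 (11.8), Serpinb9 (5.14), Serpinf1 (0.478) and Serpine2 (0.0132), where the libraries of Plau and Plat overlapped. Serpinb2 thus stood below Serpinb9 in each sg-con library and above it in each sg-kiaa1522 library. The place of Plat among Plau and Serpinb9 depends on the length used. The mean transcript length gave Plau 18.4 and Plat 23.0 TPM in sg-con, and Plau 14.9 and Plat 26.1 TPM in sg-kiaa1522. In sg-con Plat was above Serpinb9 with that length and also with the longest transcript, at 21.4 and 15.6 TPM, so the exchange of these 2 genes between the groups is seen with exon length only.

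Serpinb9 and Serpinb6a belong to a cluster of clade B serpin genes on chromosome 13, and the measured ones near Serpinb9 were lower with it. This view was chosen after the values were seen and is a description. Of the 16 Serpinb genes there, 9 had 3 counts or fewer in each library. The other 7 were compared in the fit of every gene with at least 1 count, in which 16.8% of 18499 genes were lower and 16.7% higher at an adjusted p of at most 0.05. Here 5 of the 7, Serpinb9 itself among them, were lower, none was higher, and Serpinb9g and Serpinb6a did not pass. The share over all genes also counts genes with 3 counts or fewer in each library, which these 7 leave out.

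The genes that fell lie between -164 and 75.9 kb from Serpinb9, midpoint to midpoint. Serpinb1a, an inhibitor of neutrophil elastase-type proteases, had 44, 35 and 33 counts in sg-con and 3, 16 and 4 in sg-kiaa1522 (log2 fold change -2.14, SE 0.432). Serpinb6b, a near copy of Serpinb6a, had 1231, 1210 and 1103 counts and then 398, 412 and 489, and its log2 fold change was -1.26 in this fit and -1.27 among genes with more than 500 counts (edgeR quasi-likelihood adjusted p = 2.9e-04). Serpinb9b, a near copy of Serpinb9, had 101, 106 and 109 counts and then 15, 21 and 16 (log2 fold change -2.44, SE 0.209). Serpinb1b had 27, 33 and 17 counts and then 0 in each sg-kiaa1522 library, which is at least 7.40-fold lower with 3 counts put in for each of those libraries. In each of these genes every sg-kiaa1522 library was below every sg-con library.

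Farther along, Serpinb9g, 480 kb away, had 3, 2 and 5 counts against 4, 3 and 0, and Serpinb6a lies 950 kb away. The other near copies, Serpinb9c to Serpinb9f and Serpinb6c to Serpinb6e, had at most 3 counts in any library. Only uniquely mapped fragments were counted, so stretches that near copies share in full add to none of them. Outside the serpins, Wrnip1, at -198 kb from Serpinb9, had a log2 fold change of -0.08 (adjusted p = 0.47 from the same test), and chromosome 13 as a whole had a median of -0.01.

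**Figure D4:**
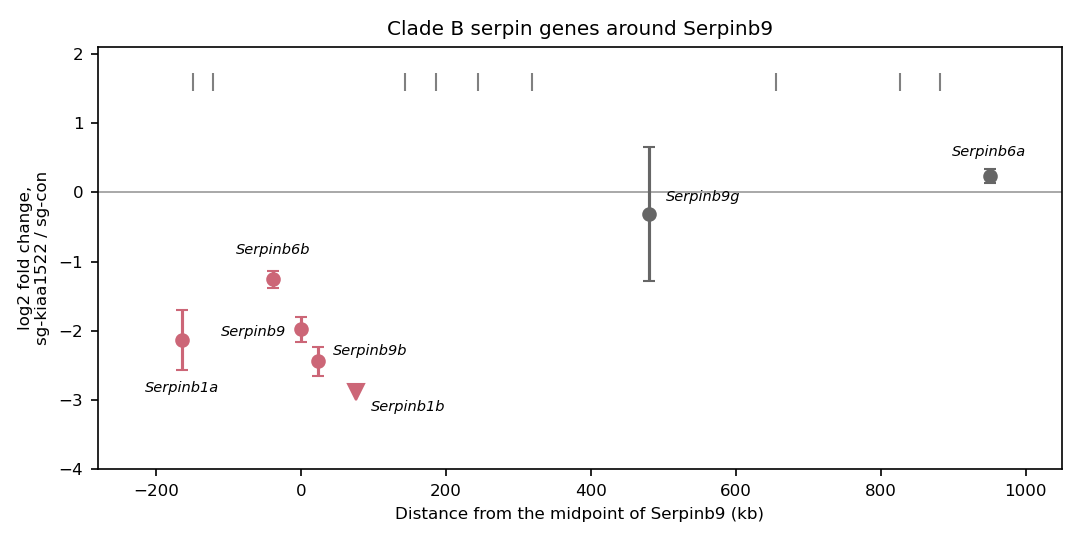
Log2 fold change (sg-kiaa1522 / sg-con) of the clade B serpin genes on chromosome 13 by distance from the midpoint of Serpinb9 in kb, from the fit of every gene with at least 1 count, with standard errors; red marks an adjusted p of at most 0.05, grey the rest, the triangle is the bound for Serpinb1b against 3 counts, and upper ticks are genes with 3 counts or fewer in each library. From Serpinb1a to Serpinb1b, the genes with a fold lie below -1, and Serpinb1-ps1 and Serpinb1c are among the ticks. Serpinb6a, 950 kb away, lies above 0.

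The cluster of chromosome 1 that holds Serpinb2 was different in make-up. Of its 12 Serpinb genes, 10 had 3 counts or fewer in each library. The exceptions were Serpinb2 and Serpinb8, 76.8 kb away, an intracellular serpin that inhibits furin, with 556, 567 and 523 counts in sg-con and 419, 693 and 528 in sg-kiaa1522. Serpinb8 had a log2 fold change of 0.14 (SE 0.0927, edgeR quasi-likelihood adjusted p = 0.24). Chromosome 1 had a median of -0.21, opposite in sign to the rise of Serpinb2.

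Few of the other serpins were measured. A list of 63 symbols, all serpins but the members and so including the other genes of both clusters, matched 64 rows, of which 49 had 3 counts or fewer in each library and 4 were tested. Of these 4, 1 was lower (Serpinb6b) and 1 was higher, near the 26.3% of all tested genes in each direction, and the median was 0.34 against -0.01 over all tested genes. The higher one was Serpinh1, the collagen chaperone of the endoplasmic reticulum, at 58.4 ± 4.51 CPM in sg-con and 116 ± 6.56 CPM in sg-kiaa1522 (SD, n = 3), or 0.99 as log2 fold change (SE 0.0818, adjusted p = 1.1e-04 from the same test). These counts depend on the filter. Among every gene with at least 1 count, which leaves out 40 of the 64 rows, 6 were lower and 3 higher, against 16.8% and 16.7% of all genes.

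In the rest of the plasminogen system, Anxa2, S100a10 and Lrp1 had the largest falls. Of 44 listed genes, 18 had 3 counts or fewer in each library and 19 were tested, of which 6 were lower and 3 higher at an adjusted p of at most 0.05, not far from the 26.3% of all tested genes in each direction. The median log2 fold change was -0.19, against -0.01 over all tested genes. Plasminogen itself (Plg) had at most 2 counts in any library. Anxa2 and S100a10 form the annexin complex that binds plasminogen and tissue-type activator at the cell surface, and they had 2550 ± 175 and 387 ± 48.1 CPM in sg-con and 1060 ± 126 and 201 ± 11.3 CPM in sg-kiaa1522 (SD, n = 3). Their log2 fold changes were -1.26 and -0.94 (edgeR quasi-likelihood adjusted p = 8.6e-05 and 2.5e-04). Lrp1, which clears inhibitor-bound Plau and Plat from the surface, went from 292 ± 19.2 to 167 ± 14.4 CPM (SD, n = 3), with a fold change of -0.81 on the log2 scale (adjusted p = 2.4e-04 from the same test). Eno1, an enolase that can serve as a plasminogen receptor and has the near copy Eno1b in the tables, had -0.65 (adjusted p = 0.0051).

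The higher genes of this list were F3, tissue factor, the starter of coagulation, at 46.2 ± 6.04 and 75.9 ± 3.10 CPM (SD, n = 3, log2 fold change 0.72, edgeR quasi-likelihood adjusted p = 0.0011), the integrin subunit Itga5 (0.45, adjusted p = 0.0032) and Procr, the protein C receptor (0.38, adjusted p = 0.013). The plasminogen receptor Plgrkt had a log2 fold change of -0.30 and did not pass (adjusted p = 0.15). Serpinf2, antiplasmin, had 1, 2 and 0 counts in sg-con and 11, 8 and 9 in sg-kiaa1522, which is at least 3.64-fold higher against 3 counts per sg-con library.

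**Figure D5:**
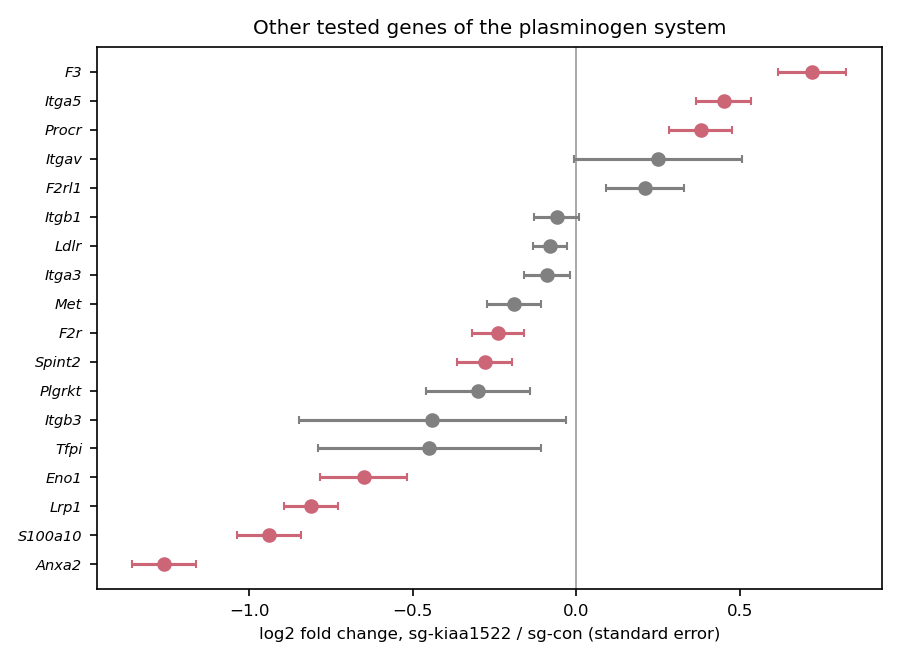
Log2 fold change (sg-kiaa1522 / sg-con) with its standard error for 18 of the tested genes of the plasminogen list, from edgeR's quasi-likelihood test; red marks an adjusted p of at most 0.05, grey the rest. Anxa2 (-1.26), S100a10 (-0.94) and Lrp1 (-0.81) lie at the low end and F3 (0.72) at the high end.

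Proteases that the intracellular serpins are known to meet were mostly at low counts. Of 11 listed, 5 had 3 counts or fewer in each library, Gzmb, the target of Serpinb9, with at most 2. The 3 tested were cathepsins of the lysosome, and each passed, against 26.3% of all tested genes lower and 26.3% higher. Ctsh and Ctsb were lower, with log2 fold changes of -1.68 and -0.56 (edgeR quasi-likelihood adjusted p = 3.4e-04 and 6.8e-04), and Ctsl was higher, with 0.50 (adjusted p = 3.0e-04 from the same test). Ctsb lies on chromosome 14, as Plau does.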

How the data were processed

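RNA-seq counts of the 6 libraries were used as deposited. Before depositing, the authors removed adaptor sequence and rRNA reads (Seqtk), aligned to GRCm38 with HISAT2 2.0.4 and had StringTie 1.3.0 count uniquely mapped fragments per gene; the deposited values are raw counts, and the annotation release and strand setting are not given in the sources used here. Groups and replicate numbers came from the sample titles. Following the study's methods, only genes whose counts summed to over 500 entered the edgeR fit, run with edgeR 4.0.16 (R 4.3.3). The methods name no test, and the quasi-likelihood test with TMM factors (0.990 to 1.01) and Benjamini-Hochberg adjustment over the 10046 genes was used. Standard errors were derived from the F statistic. Tested genes held 99.5% to 99.6% of counts. Positions, exon lengths for TPM and overlaps came from GENCODE M21 (GRCm38), which matched 34267 of 34745 identifiers. For single values an exact permutation test (two-sided) was used. Floors of 3 counts cover counting error only.

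The members and lists were chosen with earlier results of these data known. Named genes are the members, their near copies, C77080, Plg, Serpinf2, Anxa2, S100a10, Lrp1 and, per list, up to 6 genes with the largest change among those past an adjusted p of 0.05 without overlap. Neighbours, other Serpinb genes, overlapping genes, Serping1, Serpina11, Serpina12, Procr and Plgrkt were chosen after their values were seen. For 1 listed gene the values are not reported here. The alternatives tried were the exact test and the likelihood ratio test of edgeR, DESeq2 1.42.0, RLE factors, library size alone, other filters, a replicate block, each library left out, the chromosome median removed and other gene lengths. Simulated data of 10020 genes were drawn for sg-kiaa1522 against sg-con. In them the test recovered 194 of 194 genes changed by known folds and called 12 others. This recovery was not split by the size of the fold. How well the test finds small changes, such as those of Plau and Plaur, therefore cannot be read from it. Libraries of a group differed beyond counting noise (chi-square at least 12.3 per degree of freedom), so none was counted as the same library deposited again.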

Additional observations from a re-analysis of the deposited data

How the results depend on the processing

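The log2 fold changes of Plaur, Serpinb2 and Serpinb9 kept their direction and passed an adjusted p of 0.05 under each alternative in which they were tested, and Plat, Serpinb6a and Serpinf1 passed under none. Plau kept its call with DESeq2, RLE factors and library size alone (-0.34, -0.34 and -0.35, adjusted p = 0.045, 0.046 and 0.040) and lost it as follows. It had -0.34 with edgeR's exact test, the likelihood ratio test and the replicate block (adjusted p = 0.052, 0.050 and 0.070), where values shown as 0.050 lay just above the threshold, and -0.33 with every gene of at least 1 count and with filterByExpr (0.055 and 0.051). With each library left out it ranged from -0.44 to -0.24 and passed only without sg-kiaa1522 replicate 3, and with the median of its chromosome removed it was 0.04. Members lower at an adjusted p of 0.05 numbered 1 under those same 5 settings and 1 to 2 with a library left out. Members called higher numbered 0 to 1, and higher at that adjusted p 1 to 2, since Serpinb2 left the test without any 1 sg-kiaa1522 library. In the plasminogen list 3 to 5 genes were higher with a library left out, 5 without sg-con replicate 1, and 4 to 7 were lower, with 4 under the replicate block, against 6. Among other serpins, testing every gene with at least 1 count gave 6 lower and 3 higher, filterByExpr 4 lower and 2 higher, and DESeq2 2 higher; with a library left out 1 to 2 were higher. These 2 filters test more genes. At the same threshold, 3114 and 3084 of all genes were lower and higher with every gene of at least 1 count (16.8% and 16.7%), against 2639 and 2638. With the fold threshold of 2 added, the counts over all genes were 941 and 767 with that filter and 812 and 607 with filterByExpr, against 436 and 275. Same-numbered libraries deviated from their group means with correlations across genes of -0.237, -0.0528 and -0.173, against a mean of 0.0761 for different numbers. No pairing by number was thus seen, though with 3 libraries per group this cannot show how they were processed. Other gene lengths moved the mean TPM by more than its SD in 19 of 32 cases. Depth limits Serpine2 and Serpinf1, for which small differences were not detectable.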

Other observations

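Some serpins outside the tested genes were seen in 1 group mainly, and are given as values chosen after they were seen. Serping1, the inhibitor of complement C1, had 6, 0 and 0 counts in sg-con and 29, 45 and 55 in sg-kiaa1522 (edgeR quasi-likelihood adjusted p = 1.6e-04 among every gene with at least 1 count). Serpina12, vaspin, had 10, 7 and 10 counts in sg-con and 0 in each sg-kiaa1522 library, at least 2.64-fold lower against 3 counts per library. Serpina11 had 9, 8 and 10 counts and then 0, 0 and 3, at least 2.63-fold lower by the same rule.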
